A study of Rattus norvegicus with 20 samples.

Results

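The right ventricle of rats 8 weeks after pulmonary banding was compared with that of rats 8 weeks after a sham operation, across all genes. Members were taken from the labels: 4 libraries of banded ventricles (replicates 1, 3, 4 and 5) and 5 of sham ventricles (replicates 1 to 5), which makes 9 of the 19 libraries that hold values. All animals were Wistar rats, an outbred laboratory strain, aged 11 weeks, and no genetic change or drug is named for either group. In pulmonary banding a constriction is tied around the artery that leaves the right ventricle, so that the chamber ejects against raised pressure; in the sham operation the band is left out. The other 10 libraries are the 4-week groups of the same operations (5 sham, 5 banding, aged 7 weeks), used here to set the size of an effect at 8 weeks beside that at 4 weeks. Not analysed here was the banding ventricle numbered 2. The labels do not name litters, surgery days or pooled animals, and they call the tissue only a right ventricle, so no cell type was separated.

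The right ventricle normally pumps at low pressure into the lungs and burns mostly fatty acids. Under a lasting pressure load its muscle cells enlarge, return in part to genes of the fetal heart, and change their ion channels and fuel enzymes, while fibroblasts lay down matrix, immune cells enter and small vessels are rebuilt. Rodent ventricles show this clearly because the adult chamber runs on the fast myosin heavy chain Myh6 and the loaded chamber takes up the slow chain Myh7.

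Recovered depth ran from 2.81 to 7.11 M reads in sham and from 2.70 to 8.54 M in banding, and replicate 1 was the shallowest of both groups. Ventricular myocyte transcripts (8 of 8 listed were measured, among them Myh6, Tnni3 and Myl2) took up 9.17 to 10.3% of each sham library and 6.37 to 6.85% of each banding library. Without Myh6 their sums were 238032 to 289109 in sham and 243862 to 287976 in banding, which overlap. Of the 8 markers 2 rose and 2 fell, with a median of −0.097, and none rose without the libraries rich in atrial transcripts defined next. Of 7 B cell markers none was tested, 5 being below the minimum and 2 without an ID in the table. The first principal component, with 45.4% of the variance, separated banding (32.7 to 36.2) from sham (−31.7 to −24.6). The second, with 15.8%, was highest in sham replicate 1 and banding replicate 3. Those are also the highest libraries of their group in Myl7, the light chain of atrial myosin, which held 17580.0, 1006, 129, 41.1 and 4605 in sham and 30.04, 2315, 24.7 and 70.2 in banding. Libraries with Myl7 above 1000 (sham 1, 2 and 5, banding 3) are called rich in atrial transcripts, and list counts of 5 or more that change by more than 1.5 times without them are given with and without. Values are normalized counts (reads divided by a library factor), listed in the order sham 1, 2, 3, 4, 5 and banding 1, 3, 4, 5. Differences are banding minus sham on the log2(value + 1) scale with their standard error, from a limma fit of the 4 groups, and a gene was counted as called where the p adjusted by Benjamini-Hochberg lay under 0.05. In these bulk samples, fewer cells of a type and less RNA per cell cannot be told apart.

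Of 10926 transcript IDs tested, 3644 (33.4%) were called. They were almost evenly split, with 1830 higher (16.7%) and 1814 lower (16.6%) in banding, around a median difference of 0.0073 over all IDs. Changes of at least 2-fold were called for 420 IDs upward (3.84%) and for 313 downward (2.86%). The libraries of both groups did not overlap for 2751 IDs (25.2%), and 2571 of these were called. The authors' deposited table of this comparison called 3561 IDs; 3481 of those IDs passed the minimum here, and limma called 3404 in the same direction. Of the tested IDs, 137 reached the minimum only through the 8-week banding libraries, and 32 of these were called higher. Counts of rises, those of lists included, were not cleared of such IDs and are descriptions only. List counts below are to be read against the 16.7% higher and 16.6% lower of all IDs. Without the libraries rich in atrial transcripts, 2 sham and 3 banding libraries remained at 8 weeks, and 2553 IDs were called. A call lost there cannot be told apart from an effect of fewer libraries.

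The steepest rise was that of Ankrd23, an ankyrin repeat protein of the sarcomere that responds to stretch, with 66.9, 80.3, 103, 89.3 and 92.2 in sham and 2503, 4489, 3950.4 and 2928 in banding. Every banding library lay above every sham library (log2 difference 5.29 ± 0.31, adjusted p = 6.58e-11). Tceal7, of the transcription elongation factor A-like family, held 21.02, 1.85, 19.9, 15.02 and 22.1 in sham and 479, 507, 516 and 434 in banding (5.14 ± 0.46). Bex1, a brain-expressed X-linked family member, followed with 11.5, 6.46, 15.7, 11.1 and 13.4 in sham and 188, 244, 243 and 172 in banding (4.11 ± 0.25). Both were low in all 5 sham libraries and far above that range in all 4 banding libraries. Ncam1, the neural cell adhesion molecule, held 145, 115, 154, 107 and 198 in sham and 1404, 2322, 2045 and 1731 in banding, and its difference of 3.70 ± 0.18 had the smallest p of all rises (adjusted p = 5.13e-12). Akip1, which binds protein kinase A, held 72.6, 57.2, 69.3, 88.5 and 95.3 in sham and 697, 777, 877 and 632 in banding (3.28 ± 0.16). Serpine2, an inhibitor of thrombin and related proteases, rose by 2.59 ± 0.16, and Rnd1, a small GTPase, by 3.61 ± 0.31. None of these genes had overlapping groups. The 12 largest rises and 12 largest falls, here and below, were chosen among called genes without overlap. For them the lack of overlap was set by the choice and is not a result.

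**Figure D1:**
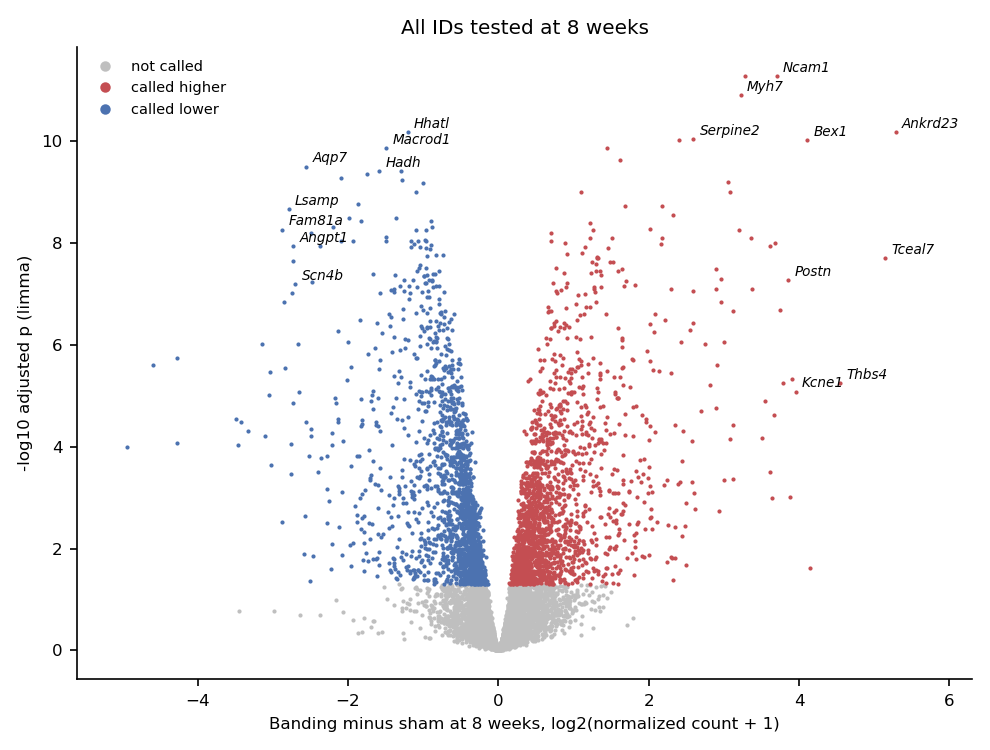
Every point is 1 of the 10926 IDs tested; the x axis gives banding minus sham at 8 weeks in log2(normalized count + 1), the y axis −log10 of the limma adjusted p. Calls spread to both sides in like numbers (1830 higher, 1814 lower), and Ankrd23 lies at 5.29 and Fam81a, the largest fall among genes with a mean of 50 or more and no overlap, at −2.87.

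Among the falls, Lsamp, a cell adhesion protein anchored in the membrane, held 298, 337, 335, 298 and 283 in sham and 44.1, 30.1, 40.1 and 69.3 in banding (log2 difference −2.79 ± 0.21, adjusted p = 2.12e-09). Fam81a held 97.5, 81.2, 113, 123 and 92.96 in sham and 10.01, 12.9, 12.7 and 16.6 in banding (−2.87 ± 0.23). In both genes every banding library lay below every sham library, a condition for being named among the largest falls. Bmper, which binds bone morphogenetic proteins outside the cell, fell by 2.67 (SE 0.31), Crybb1, a crystallin, by 2.49 (SE 0.20), and the gene listed as DDIT4L2 by 2.37 (SE 0.20), whose reads may be shared with a near-identical copy. Several falls with the smallest p were of less than 4-fold. Hhatl, related to the hedgehog acyltransferases, held 2028, 1985, 1992, 2111 and 2029 in sham and 833, 927, 851 and 909 in banding (log2 difference −1.21 ± 0.07, adjusted p = 6.58e-11). Its 5 sham values lay close together, from 1985 to 2111, and all above the banding values. Macrod1, a hydrolase of mitochondrial ADP-ribose modifications, differed by −1.49 ± 0.093, and Lpin1, the phosphatidate phosphatase lipin, by −1.30 ± 0.086. Aqp7, a channel for water and glycerol, held 654, 905, 625, 711 and 957 in sham and 206, 96.02, 99.6 and 138 in banding (−2.55 ± 0.17).

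**Figure D2:**
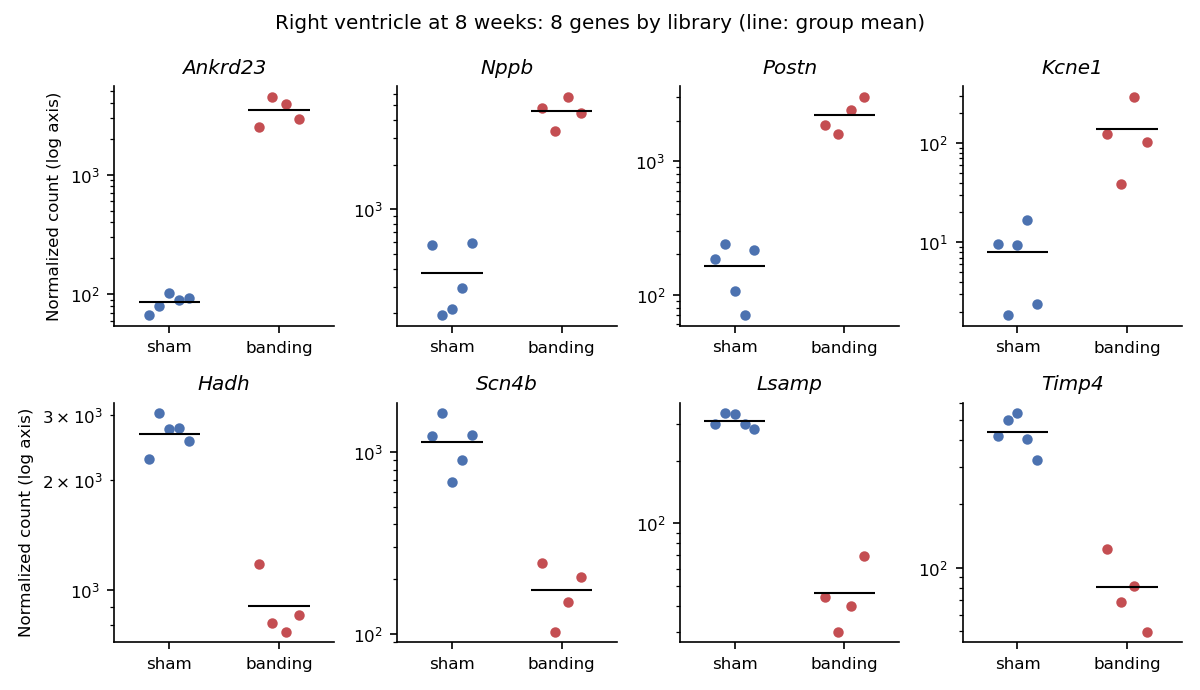
Each panel shows 1 gene, with the 5 sham and 4 banding libraries as points, the group mean as a line and normalized counts on a log axis. No panel has overlapping groups: Ankrd23, Nppb, Postn and Kcne1 are higher in every banding library, and Hadh, Scn4b, Lsamp and Timp4 lower. The largest rises and falls were chosen among called genes without overlap, so this was set in advance for those of them shown.

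The myosin heavy chains shifted from Myh6 toward Myh7, to near equal levels of both. Myh6 held 261397, 262614, 289365, 266308 and 231951 in sham and 110682, 115287, 102826 and 96548 in banding (log2 difference −1.30 ± 0.13, adjusted p = 7e-08). Myh7 held 9950.2, 11018, 16614, 12473 and 10171 in sham and 91157, 126638, 121274 and 106532 in banding (3.22 ± 0.17). Myh7 made up 3.67, 4.03, 5.43, 4.47 and 4.20% of both transcripts in the sham libraries and 45.2, 52.3, 54.1 and 52.5% in the banding libraries. Means were 4.36 ± 0.666% (SD, n = 5) and 51.0 ± 3.99% (n = 4), a difference of 46.7 percentage points (2-sided exact permutation test over libraries, p = 0.0159, the smallest this design can give). Myh6 was the highest ID of the whole library in all 5 sham ventricles and in banding replicate 1, and Myh7 was the highest in banding replicates 3, 4 and 5. Both chains together took up 4.45 to 5.45% of a sham library and 3.73 to 4.45% of a banding library.

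Each of these genes is host to a microRNA of the miR-208 family, which in the rodent heart is known to act on muscle gene programmes. In the GRCr8 assembly Mir208a lies within Myh6 and Mir208b within Myh7. Their mature 3p strands share 1 seed, and the sequences are shown because the ID of 1 of them moved against its host gene. Both are written 5′ to 3′ from RefSeq, on the minus strand of chromosome 15 (GRCr8, chr15:32395568-32395585 for the first and chr15:32421648-32421665 for the second), with the seed, bases 2 to 8, in capitals:
rno-miR-208a-3p: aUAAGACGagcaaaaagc
rno-miR-208b-3p: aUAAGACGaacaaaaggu
The hairpin ID of Mir208b (NR_037354) held 55.4, 39.7, 48.3, 29.2 and 25.2 in sham and 4.01, 4.30, 4.01 and 2.77 in banding, while Myh7 rose in every banding library. All 4 banding values lay below all sham values (log2 difference −3.04 ± 0.39, adjusted p = 3.41e-06), and the banding values rest on 2, 3, 6 and 3 reads against 29, 43, 46, 37 and 32 in sham. At 4 weeks the same ID held 10.9 to 50.6 in sham and 3.67 to 13.1 in banding (difference −1.75). This ID was singled out after its values were seen. Libraries of long, ribosome-depleted RNA do not measure the mature microRNA, and with no strand setting given, reads of the hairpin, of its host transcript and of an antisense transcript cannot be told apart.

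**Figure D3:**
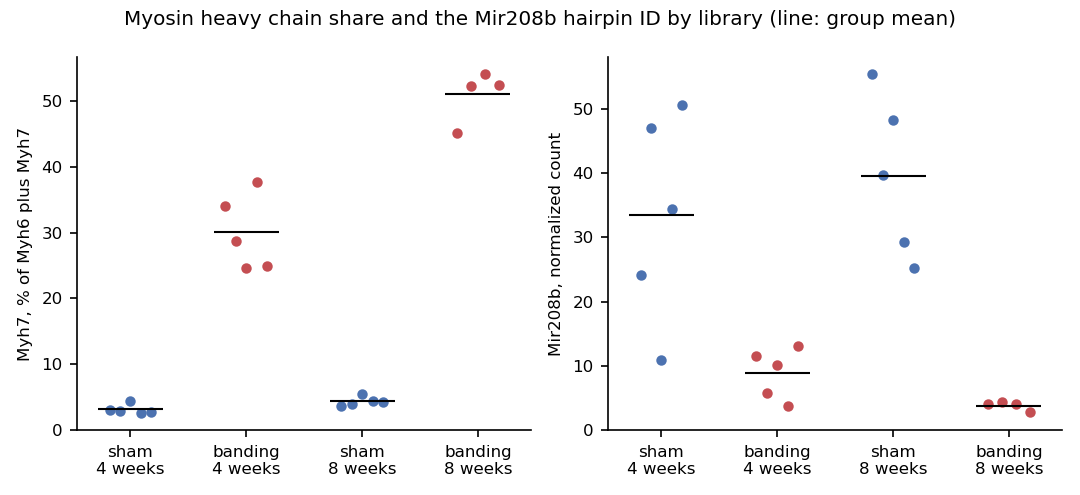
The left panel shows Myh7 as a percent of Myh6 plus Myh7, the right panel the normalized count of the Mir208b hairpin ID, for each library of the 4 groups, with the mean as a line. At 8 weeks the share runs from 3.67 to 5.43% in sham and from 45.2 to 54.1% in banding, while Mir208b runs from 25.2 to 55.4 in sham and from 2.77 to 4.30 in banding.

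Of 17 stretch and fetal genes tested, 12 rose and 1 fell, against 16.7% and 16.6% of all IDs, and their median difference was 1.67. Acta1, skeletal alpha-actin, which the fetal heart also uses, held 2739, 1734, 2846, 3010.0 and 2262 in sham and 24922, 39561, 45606 and 22442 in banding (3.68 ± 0.31). Banding replicates 3 and 4 were the highest, and all 4 lay over the sham range. Nppb, which encodes the natriuretic peptide BNP, held 577, 195, 213, 297 and 591 in sham and 4800.3, 3376, 5701 and 4469 in banding (3.75 ± 0.40). Rcan1, a calcineurin-regulated inhibitor of calcineurin, rose by 1.67 ± 0.16, Xirp2, an actin-binding protein of the intercalated disc, by 3.08 ± 0.22, and Csrp3, the muscle LIM protein, by 0.94 ± 0.13. Gdf15, a stress-induced cytokine, held 7.65, 4.62, 8.40, 11.9 and 8.67 in sham and 46.1, 40.1, 74.2 and 28.6 in banding (2.35 ± 0.37). Nppa, which encodes ANP, held 30976, 1789, 183, 126 and 6913 in sham and 23715, 22747, 34942 and 30167 in banding. Its groups overlapped, because sham replicate 1 lay within the banding range, and its call (log2 difference 4.15 ± 1.39, adjusted p = 0.0243) was lost with edgeR (log2 1.80, adjusted p = 0.272) and DESeq2 (1.80, adjusted p = 0.296) and on leaving out any 1 of sham 3, sham 4, banding 4 or banding 5 (3.25 to 4.10, adjusted p = 0.0520 to 0.0762). Nppa is itself abundant in atria, and its order over the sham libraries was that of Myl7; the part of atrial tissue in the Nppa value was not tested.

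Of 16 adult sarcomere genes tested, 3 fell and 1 rose, against 16.6% and 16.7% of all IDs. Most of the contractile apparatus thus did not pass the test, and 7 of the genes fell in the fit with Myl7 as a covariate. Tnni3, the adult cardiac troponin I, held 37499.5, 41474, 48255, 48891 and 47961 in sham and 27740.2, 22866, 24704 and 24434 in banding (log2 difference −0.84 ± 0.10, adjusted p = 1.93e-06). Tnnt2, Myl2, Mybpc3, Actn2, Tnnc1 and Myl3 lay between −0.22 and 0.13 and were not called. Actc1, the cardiac actin, had 0.32 ± 0.12, a call that was lost under 9 alternatives. Tnni1, the slow troponin I of the fetal heart, did not rise with Myh7. It held 19.1, 15.7, 16.8, 10.3 and 15.8 in sham and 8.01, 11.5, 1.34 and 9.24 in banding, a fall of 1.17 (SE 0.41, adjusted p = 0.0307) that was lost under 8 alternatives, among them the omission of banding replicate 4 (−0.63, adjusted p = 0.167).

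Sodium and potassium channel genes moved in both directions, 6 of 25 higher and 12 lower, against 16.7% and 16.6% of all IDs. A pair of accessory subunits of the sodium channel went opposite ways. Scn4b held 1231, 1632, 683, 900.3 and 1237 in sham and 244, 103, 149 and 205 in banding (−2.70 ± 0.26), and Scn3b held 38.2, 12.001, 26.2, 16.6 and 26.8 in sham and 104, 208, 227 and 117 in banding (2.75 ± 0.32). Of the potassium channels, Kcnd2, a subunit of the transient outward current, held 344, 382, 335, 392 and 353 in sham and 172, 51.6, 102 and 116 in banding (−1.82 ± 0.26). Kcnj12 and Kcnh2, of the inward rectifier and the rapid delayed rectifier, had −1.05 ± 0.12 and −0.61 ± 0.11. Kcnq1, the pore of the slow delayed rectifier, had −0.36 ± 0.084, while its accessory subunit Kcne1 held 9.56, 1.85, 9.44, 16.6 and 2.36 in sham and 124, 38.7, 293 and 103 in banding (3.96 ± 0.55). The Kcne1 values of the banding libraries spread widely, with replicate 4 highest, but stayed above the sham range. The call of Kcnq1 was lost without the libraries rich in atrial transcripts. Kcna2 fell by 2.21 (SE 0.38), and Hcn2, a pacemaker channel, rose by 0.75 ± 0.12.

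Among 17 calcium handling genes 6 fell and 1 rose, against 16.6% and 16.7% of all IDs. Trdn, triadin of the release complex, had −0.78 ± 0.081, Hrc, a calcium-binding protein of the reticulum, −0.64 ± 0.17, and Pln, the brake on the calcium pump, −0.50 ± 0.10. The release channel Ryr2 (−0.0093 ± 0.083) and the calcium store protein Casq2 (0.086 ± 0.077) were not called. The pump itself, Atp2a2, was counted under 1 non-coding ID only (−0.84 ± 0.16) and is uncertain.

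Receptors and second messengers of the sympathetic system also moved in both directions, 7 of 29 higher and 9 lower. These counts stand against 16.7% and 16.6% of all IDs. Without banding replicate 1 the number higher was 4. Adra1d and Adra1b, alpha-1 adrenergic receptors, fell by 2.74 (SE 0.28) and 0.99 (SE 0.094), and Adrb1, the main beta receptor of cardiac muscle, by 0.48 (SE 0.15). Adra1d held 126, 90.5, 81.9, 77.5 and 104 in sham and 18.02, 14.3, 5.35 and 21.3 in banding, with no overlap. Grk5, a kinase that switches off such receptors, rose by 1.10 ± 0.14, while Grk2 had −0.30 ± 0.10. The adenylyl cyclases Adcy5 and Adcy7 went opposite ways (−0.32 ± 0.083 and 1.13 ± 0.21). So did the phosphodiesterases Pde4a and Pde4d (−0.92 ± 0.18 and 1.11 ± 0.36). The calls of Adrb1 and Adcy5 were lost without the libraries rich in atrial transcripts, that of Grk2 under 7 alternatives and that of Pde4d under 4. In the angiotensin and endothelin systems 6 of 13 genes rose and 1 fell, against 16.7% and 16.6% of all IDs. Of the rises 1 was lost under 11 alternatives. Edn1, the endothelin peptide, held 21.02, 17.5, 12.6, 27.7 and 18.9 in sham and 72.1, 77.4, 32.1 and 66.5 in banding (1.58 ± 0.30), and its receptor Ednrb rose by 1.09 ± 0.12. Ace, the angiotensin converting enzyme, rose by 0.81 ± 0.18. Agt, the angiotensin precursor, had −1.62 ± 0.50, and this call was lost under 5 alternatives, among them the omission of sham replicate 1 (−1.27, adjusted p = 0.0507).

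Genes of oxidative metabolism fell nearly without exception. Of 31 fatty acid oxidation genes tested 29 fell, with a median difference of −0.82, and their summed share of a library was 2.32 to 2.76% in sham and 1.37 to 1.76% in banding. Hadh, a dehydrogenase of the beta-oxidation spiral, held 2278, 3038, 2747, 2764 and 2546 in sham and 1178, 809.7, 769.8 and 852 in banding (log2 difference −1.58 ± 0.11, adjusted p = 3.79e-10). Ucp3 and Ehhadh, a mitochondrial carrier and a peroxisomal oxidation enzyme, had −1.96 ± 0.37 and −1.68 ± 0.24. Cpt1b, the muscle form of the carnitine gate into mitochondria, had only −0.26 ± 0.071, against −0.78 ± 0.16 for the liver form Cpt1a, and both calls were lost without the libraries rich in atrial transcripts. The exceptions were Acadl (−0.087) and Ucp2 (0.16), which were not called.

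All 20 citrate cycle genes fell, by 0.28 (Idh3a) to 0.72 (Suclg1), with a median of −0.47. Cs, citrate synthase, held 6412, 7423, 7411, 7348 and 6716 in sham and 4920.4, 4598, 4942 and 4961 in banding (−0.54 ± 0.069). Both ranges were narrow and did not overlap. In the respiratory chain 44 of 48 nuclear-encoded genes fell, with a median of −0.42, and Ndufs7 of complex I (−0.72 ± 0.095) and Atp5f1c of the ATP synthase (−0.66 ± 0.084) had among the smallest p. The 4 that did not pass the test were Atp5pb, Cox6a2, Cox6a1 and Cox8a (−0.27, −0.37, 0.14 and 0.20). Cox6a2 and Cox8b (−0.70 ± 0.11) are muscle forms of cytochrome oxidase subunits, Cox6a1 and Cox8a the forms of other tissues.

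The machinery that builds mitochondria followed in part. Of 44 genes of mitochondrial translation and protein import 22 fell, with a median of −0.25, among them the ribosomal proteins Mrps27 (−0.80 ± 0.11) and Mrpl2 (−0.70 ± 0.12), and 36 fell in the fit with Myl7 as a covariate. Of 25 transcriptional regulators of energy metabolism 13 fell. Ppargc1a, the coactivator PGC-1alpha, held 594, 512, 643, 641 and 539.6 in sham and 318, 367, 343 and 414 in banding (log2 difference −0.70 ± 0.11, adjusted p = 3.25e-05). Esrra, the receptor ERRalpha, had −0.45 ± 0.089, Perm1, a striated muscle regulator of mitochondrial genes, −0.79 ± 0.11, and Rxrg, a retinoid X receptor, −1.38 ± 0.14. Tfam, which packages mitochondrial DNA, and Nrf1 were not called (−0.20 and 0.032).

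Energy transfer and amino acid oxidation were lower as well. In the list of creatine and adenylate kinases and nucleotide carriers 10 of 17 fell and 2 rose, and their share was 1.75 to 2.06% of a sham library and 1.01 to 1.25% of a banding library. Ckm, the muscle creatine kinase, held 20652, 23317, 23296, 22749.5 and 20479 in sham and 12678, 10036, 12390.5 and 11848 in banding (log2 difference −0.92 ± 0.093, adjusted p = 1.13e-07). Slc25a4, the muscle ADP/ATP carrier, fell by 0.91 (SE 0.10) and Slc25a5, the form of growing tissues, rose by 0.40 ± 0.14, a call lost under 6 alternatives. Branched-chain amino acid and ketone genes numbered 23, of which 17 fell and 3 rose. Bcat2, the mitochondrial transaminase, had −0.88 ± 0.12 and Bcat1, the cytosolic one, 1.40 ± 0.24. The dehydrogenase subunits Bckdha and Bckdhb and their kinase Bckdk all fell (−0.74 ± 0.11, −0.95 ± 0.09 and −0.79 ± 0.074).

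Glycolysis did not move as a block, with 9 of 34 genes higher and 12 lower, against 16.7% and 16.6% of all IDs. Among the falls, Eno3, the muscle enolase, held 4128, 5156, 5534, 4937 and 4401 in sham and 2021, 1098, 1368 and 2017 in banding (−1.61 ± 0.18), and Pfkm, Pgam2 and the insulin-regulated transporter Slc2a4 had −0.89 ± 0.076, −0.84 ± 0.10 and −0.71 ± 0.10. Among the rises, Pfkp, the platelet phosphofructokinase, held 369, 329, 337, 331 and 374 in sham and 563, 762, 863 and 700.5 in banding (1.04 ± 0.11), and Hk1, a hexokinase, 1495, 1472, 1738, 1668 and 1476 in sham and 2227, 2631, 2790.4 and 2562 in banding (0.70 ± 0.079). Slc16a3, a lactate exporter, rose by 1.02 ± 0.22. Of the pyruvate dehydrogenase kinases, Pdk4, Pdk1 and Pdk2 fell (−1.39 ± 0.30, −0.47 ± 0.094 and −0.45 ± 0.11) and Pdk3 rose (1.27 ± 0.20).

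**Figure D4:**
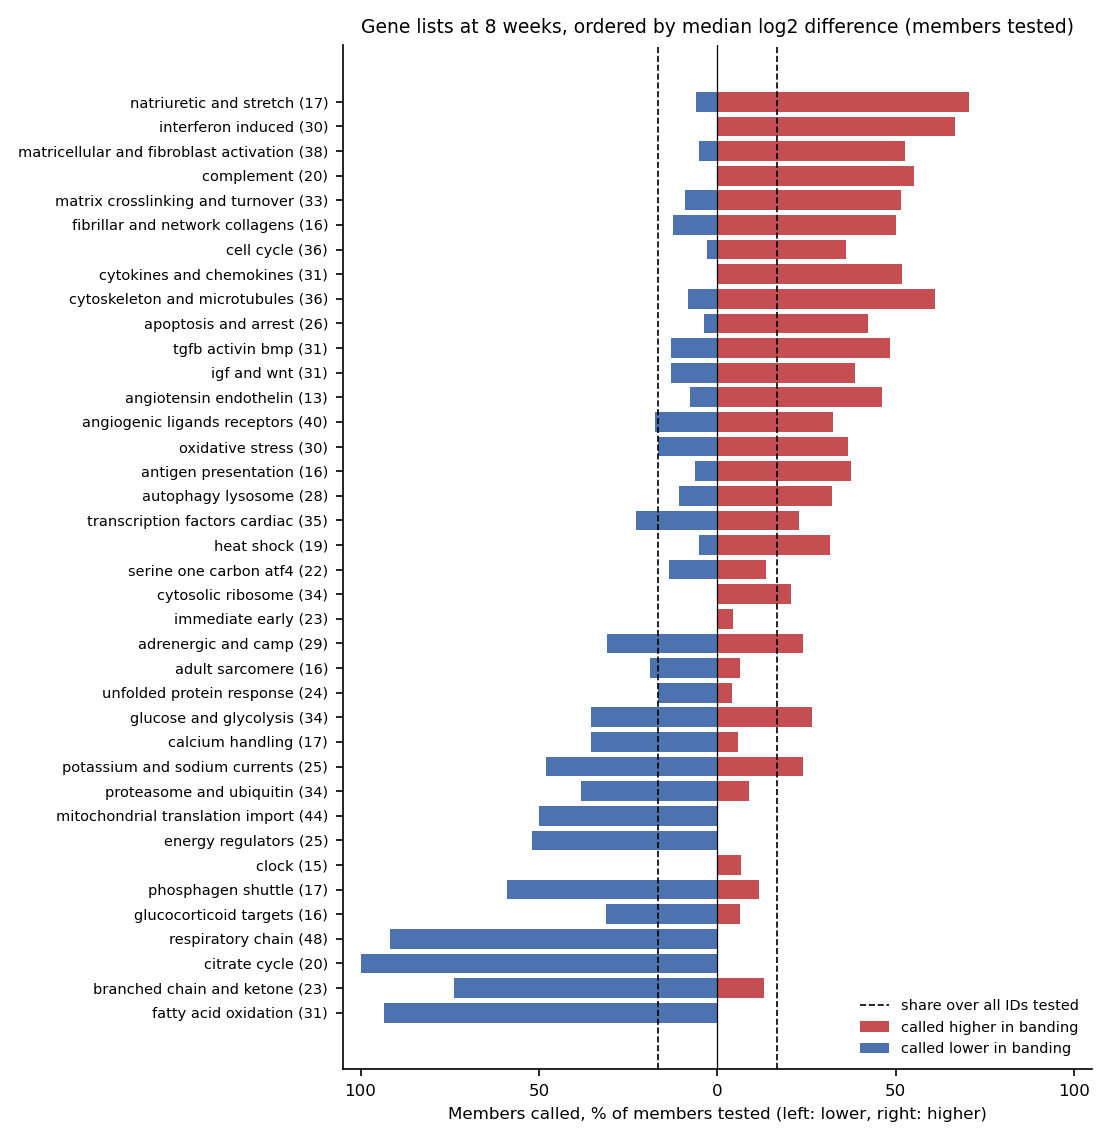
For each gene list other than the cell type markers the bars give the percent of its tested members (number in brackets) called higher, to the right, and called lower, to the left, with lists ordered by median log2 difference; dashed lines mark the shares over all IDs, 16.7% higher and 16.6% lower. Stretch genes, interferon-induced genes and matricellular genes have the highest medians of these lists (1.67, 0.65 and 0.61) and fatty acid oxidation the lowest (−0.82).

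Protein turnover showed smaller differences. Of 34 proteasome and ubiquitin genes 13 fell and 3 rose, and without sham replicate 2 the number of falls was 8. The proteasome subunits Psmc5 and Psma7 had −0.45 ± 0.086 and −0.43 ± 0.083. Trim63, the muscle ubiquitin ligase MuRF1, had −0.57 ± 0.11, and Uchl1, a ubiquitin hydrolase of neurons, held 0, 3.69, 2.10, 1.58 and 7.88 in sham and 16.02, 32.96, 40.1 and 24.03 in banding (3.12 ± 0.61). Among 24 genes of the unfolded protein response 4 fell and 1 rose, with Hspa5, the chaperone BiP, at −0.49 ± 0.089. The falls were near the share of all IDs (16.6%) and the rise below it (16.7%). The rise was lost under 12 alternatives and 1 of the falls under 11. Small heat shock proteins of muscle were higher: Hspb6, Hspb3 and Hspb1 rose by 1.12 ± 0.15, 1.12 ± 0.18 and 0.81 ± 0.13, within a list of which 6 of 19 rose and 1 fell. Of 28 autophagy and lysosome genes 9 rose and 3 fell, against 16.7% and 16.6% of all IDs. Of the 9 that rose 5 were cathepsins, lysosomal proteases, such as Ctsk (1.00 ± 0.14) and Ctsz (0.75 ± 0.14), and Pink1, which marks damaged mitochondria, fell by 0.59 (SE 0.09). Of 34 cytosolic ribosomal and elongation factor genes 7 were called higher, a share near that of all IDs, led by Rpl3 (0.72 ± 0.11), and 4 were called without banding 4, banding 5 or sham 4 and 2 without the libraries rich in atrial transcripts.

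The cytoskeleton was among the lists with the most rises, 22 of 36 against 3 falls. Flnc, the muscle filamin, rose by 1.31 ± 0.12, and Synm, synemin, by 1.22 ± 0.13. Tubulin genes and their partners were also among the rises. Tubb6 had 0.81 ± 0.14, Map4, the main microtubule-binding protein of heart muscle, 0.56 ± 0.079, and Tubb3, a tubulin known from neurons, held 7.65, 3.69, 7.35, 3.16 and 8.67 in sham and 26.03, 25.8, 16.7 and 39.7 in banding (2.00 ± 0.34). VASH2, which removes the end tyrosine of tubulin, rose by 1.65 ± 0.21. Tuba8 went the other way (−1.02 ± 0.14).

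Extracellular matrix genes rose broadly. Of 38 matricellular and fibroblast activation genes 20 rose and 2 fell, with a median of 0.61. Thbs4, a thrombospondin, held 111, 66.5, 26.2, 35.6 and 121 in sham and 1299.7, 1475, 1402 and 1647 in banding (4.55 ± 0.61). Postn, periostin of activated fibroblasts, held 185, 237, 106, 70.3 and 216 in sham and 1850.4, 1597, 2412 and 3022 in banding (log2 difference 3.85 ± 0.37, adjusted p = 5.36e-08). Ltbp2, a matrix protein of elastic fibres, held 170.1, 147, 94.4, 59.3 and 181 in sham and 1174, 1179, 1934 and 1499.8 in banding (3.54 ± 0.51), and Comp, the cartilage thrombospondin, held 1.91, 2.77, 5.25, 3.95 and 1.58 in sham and 88.1, 106, 29.4 and 36.04 in banding (3.88 ± 0.84). In all 4 genes each banding library exceeded each sham library, which for Thbs4 and Postn was set by the choice of the largest rises. Spp1, osteopontin, Cilp and Ccn2, connective tissue growth factor, rose by 3.64 ± 0.79, 3.13 ± 0.33 and 2.58 ± 0.26. Ltbp1, which tethers latent TGF-beta, fell by 0.91 (SE 0.17).

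Of 16 collagen chains 8 rose and 2 fell, and 5 rose when sham 3, sham 4, banding 3 or banding 5 was left out or when low IDs were kept, while 10 rose without the libraries rich in atrial transcripts and 11 with Myl7 as a covariate. Their summed share was 0.479 to 0.732% of a sham library and 0.749 to 0.866% of a banding library, with no overlap. Col8a1, a short-chain collagen of vessels, held 89.8, 118, 58.8, 75.9 and 111 in sham and 545, 698, 863 and 687 in banding (2.95 ± 0.31). The basement membrane chains Col4a1 and Col18a1 had 0.83 ± 0.083 and 0.92 ± 0.23. Col1a1 and Col3a1, the fibrillar chains that make up most of a scar, were not called. Col1a1 held 2735, 2305, 1907, 1684 and 2896 in sham and 2708, 3941, 4169 and 3697 in banding (difference 0.67 ± 0.26, adjusted p = 0.056) and Col3a1 held 16450.5, 17070.2, 12586, 13722 and 23016 in sham and 20234, 18101, 20202 and 21791 in banding (difference 0.31 ± 0.19, adjusted p = 0.225). Both had overlapping groups, though for Col1a1 3 of 4 banding libraries lay above every sham library. Enzymes that crosslink and cut the matrix numbered 33, of which 17 rose and 3 fell. Loxl1 and Loxl2, lysyl oxidase-like crosslinkers, had 1.56 ± 0.22 and 1.01 ± 0.16, and Tgm2, transglutaminase, 1.44 ± 0.09. The inhibitors of metalloproteinases divided. Timp1 held 42.05, 50.8, 32.5, 41.1 and 51.99 in sham and 186, 214, 186 and 234 in banding (2.22 ± 0.24) and Timp4, the form of healthy heart, held 420.5, 499, 537, 405 and 322 in sham and 122, 68.8, 82.2 and 49.9 in banding (−2.47 ± 0.24).

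Growth factor genes of the TGF-beta family numbered 31, of which 15 rose and 4 fell. Tgfb2 held 68.8, 79.4, 56.7, 53.7 and 86.7 in sham and 507, 718, 907 and 481 in banding (log2 difference 3.20 ± 0.26, adjusted p = 5.41e-09), and Tgfb1 rose by 1.15 ± 0.22, while Tgfb3 was not called (0.0057). The activin chains Inhba and Inhbb and the activin-binding protein Fstl3 rose together (1.64 ± 0.19, 1.75 ± 0.24 and 1.69 ± 0.28). Mstn, myostatin, fell by 1.79 (SE 0.61), a call lost under 7 alternatives, edgeR (adjusted p = 0.0725) and DESeq2 (adjusted p = 0.0536) among them. In the insulin-like growth factor and Wnt list 12 of 31 rose and 4 fell. Sfrp4 and Sfrp1, secreted Wnt antagonists, had 1.93 ± 0.59 and 1.25 ± 0.35, and Sfrp5 held 47.8, 24.002, 19.9, 25.3 and 40.2 in sham and 2.003, 0, 0.668 and 11.1 in banding (−3.46 ± 0.59). Fzd2, a Wnt receptor, and Igfbp6 rose by 1.37 ± 0.26 and 1.27 ± 0.16.

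Of 40 vessel ligands and receptors 13 rose and 7 fell, against 16.7% and 16.6% of all IDs, so the falls were near that share. Without the libraries rich in atrial transcripts 8 rose, and the median moved from 0.22 to 0.19. Angpt1, the ligand that stabilizes vessels through the receptor Tek, held 344, 461, 855, 709 and 419 in sham and 68.1, 103, 68.8 and 79.5 in banding (log2 difference −2.72 ± 0.23, adjusted p = 1.12e-08), while Tek was not called (0.10). Flt4 and its ligand Vegfc rose by 1.36 ± 0.18 and 0.93 ± 0.16, although the other 4 markers of lymphatic vessels tested, Lyve1, Prox1, Pdpn and Ccl21, were not called (−0.048 to 0.091). Vegfb fell by 0.34 (SE 0.088) and Apln, the apelin peptide, by 1.13 (SE 0.24), the latter a call lost without the libraries rich in atrial transcripts. Of 14 mural cell markers 8 rose and 1 fell, with Cspg4 and Pdgfrb of pericytes at 0.95 ± 0.12 and 0.76 ± 0.10. Their summed level was 30235 to 34470 in sham and 38600.0 to 44598 in banding. Without the libraries rich in atrial transcripts 5 rose, and the median moved from 0.37 to 0.45.

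Cell death and cell cycle genes leaned upward. Of 26 genes of apoptosis and growth arrest 11 rose and 1 fell, and 6 rose without the libraries rich in atrial transcripts. Tnfrsf12a, the receptor Fn14, rose by 2.16 ± 0.18 and Gadd45a, a stress-induced gene, by 1.27 ± 0.13. Of 36 cell cycle genes 13 rose and 1 fell. The D-type cyclins Ccnd2 and Ccnd1 had 1.62 ± 0.10 and 0.88 ± 0.10, and Mcm6, part of the replication helicase, 0.94 ± 0.20. Among cardiac transcription factors 8 of 35 rose and 8 fell, not far above the 16.7% and 16.6% of all IDs. The numbers were 3 and 4 without the libraries rich in atrial transcripts. Sox4 and Hopx rose by 1.66 ± 0.22 and 1.14 ± 0.20, and Gata6 and Mef2a had −0.47 ± 0.13 and −0.55 ± 0.076. Without the libraries rich in atrial transcripts Gata6 was not called (−0.38, adjusted p = 0.0788). Nkx2-5 and Tead1 were not called (−0.14 and 0.43). Maoa, monoamine oxidase A, which releases hydrogen peroxide, held 1317, 2027, 1613, 2065 and 1779.6 in sham and 7175, 5353, 10829 and 9306 in banding (log2 difference 2.18 ± 0.18, adjusted p = 7.77e-09), the largest difference in the oxidative stress list. Of that list 11 of 30 rose and 5 fell, the falls being near the share of all IDs (16.6%).

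Immune genes rose along several lines. Of 17 macrophage markers tested 14 rose, and 9 rose when either sham replicate 3 or banding replicate 5 was left out. Their summed level was 3186 to 4584 in sham and 6014 to 7084 in banding, with no overlap. Gpnmb, a membrane glycoprotein of lipid-laden macrophages, held 76.5, 87.7, 55.6, 68.8 and 69.3 in sham and 360.5, 355, 396 and 411 in banding (log2 difference 2.41 ± 0.15, adjusted p = 9.59e-11). Trem2 rose by 1.89 ± 0.34 and Cx3cr1, the fractalkine receptor, held 7.65, 4.62, 5.25, 6.32 and 2.36 in sham and 34.04, 48.7, 55.5 and 51.7 in banding (3.00 ± 0.35). Cd163 and Mertk, of resident macrophages, were not called (−0.19 and 0.11). Complement genes rose in 11 of 20 cases, among them the receptor C3ar1 (1.59 ± 0.23) and the inhibitors Serping1 and Cd55 (1.07 ± 0.13 and 1.11 ± 0.15). Cytokine and chemokine genes rose in 16 of 31 cases, with Ccl2, which attracts monocytes, at 1.36 ± 0.23, Osmr, the oncostatin M receptor, at 1.30 ± 0.13 and Csf1, the macrophage growth factor, at 0.81 ± 0.17. In the antigen presentation list 6 of 16 rose and 1 fell, against 16.7% and 16.6% of all IDs. Cd74, the invariant chain of class II antigen presentation, fell by 0.68 (SE 0.10) while B2m of class I rose by 0.38 ± 0.10. The part of added macrophages in these lists was not tested.

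Interferon-induced genes rose in 20 of 30 cases, with a median of 0.65, and 11 rose without the libraries rich in atrial transcripts, with a median of 0.67. Rsad2, the antiviral enzyme viperin, held 151, 130.2, 139, 191 and 159.9 in sham and 368, 427, 280.0 and 348 in banding (log2 difference 1.20 ± 0.16, adjusted p = 3.48e-06). Isg15, a ubiquitin-like protein, held 68.8, 36.003, 33.6, 64.8 and 58.3 in sham and 212, 88.9, 128 and 115 in banding (1.35 ± 0.29). In both genes every banding library exceeded every sham library, and banding replicate 3 was the lowest of its group for Isg15 and the highest for Rsad2. Mx2, Dhx58, Oasl and Ifit3, further antiviral genes, rose by 1.20 ± 0.22, 1.17 ± 0.21, 1.13 ± 0.31 and 1.09 ± 0.28, the last 2 not called without the libraries rich in atrial transcripts. Of the factors that carry the signal, Stat2 and Irf9 were called higher (0.45 ± 0.10 and 0.39 ± 0.13, the latter lost under 4 alternatives), and Irf1 and Irf7 were not called (0.21 and 0.36).

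Stretches of 3 promoters are shown: Rsad2 and Oasl2, which carry the difference between 8 and 4 weeks given below, and Ifit3 of the same list as Rsad2. They are RefSeq sequences of the GRCr8 assembly written 5′ to 3′ along the gene, with capitals for the letters GAAANNGAA on either strand, the core of the interferon-stimulated response element. The match begins 146 bases before the annotated start in Rsad2 (chr6:48788213-48788311, minus strand), 150 bases before it in Oasl2 (chr12:47383282-47383380, minus strand), and 43 and 24 bases before it in Ifit3 (chr1:241527238-241527355, plus strand):
Rsad2: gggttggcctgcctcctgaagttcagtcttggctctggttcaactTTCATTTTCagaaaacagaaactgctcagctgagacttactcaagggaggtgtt
Oasl2: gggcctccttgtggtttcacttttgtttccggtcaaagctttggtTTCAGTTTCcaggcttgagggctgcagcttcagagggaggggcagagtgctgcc
Ifit3: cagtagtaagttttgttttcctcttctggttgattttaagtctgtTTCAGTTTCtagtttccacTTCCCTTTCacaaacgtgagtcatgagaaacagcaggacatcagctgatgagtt
These letters stood in 15 of the 20 promoters found for the tested interferon-induced genes (75.0%) in 7.14% of the 8882 promoters of tested genes and in 9.50% of all 27457 promoters, each of 250 bases before and 50 after a start. Of 1455 promoters of genes called higher 8.39% held them, and of 1483 of genes called lower 6.68%. The TEAD element CATTCCT, read by partners of the stretch-regulated coactivator Yap1, stood in 4.54% of promoters of genes called higher, in 3.84% of those called lower, in 3.81% of those tested and in 5.08% of all. The estrogen-related receptor element TCAAGGTCA stood in 8 of the 1483 promoters of genes called lower (0.539%), in 18 of the 8882 of tested genes (0.203%) and in 113 of all (0.412%). Of the tested citrate cycle, respiratory chain and fatty acid oxidation genes with a promoter sequence, only Sdhd held it (−0.54 ± 0.078). Matches of these motifs to each other overlapped at 16 places over all promoters. A match of letters is a description and does not show that a factor binds.

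Set beside the 4-week groups, the effect of banding at 8 weeks differed for 3 of 10926 IDs (0.0275%) by a test of the difference of both effects in the same fit. All 3 were larger at 8 weeks. Fxyd6, of the family that regulates the sodium pump, held 113, 138, 134, 149 and 147 in sham and 340.4, 268, 341 and 366 in banding (1.26 ± 0.10 at 8 weeks and 0.39 at 4 weeks, adjusted p of the difference = 0.0101). Rsad2 had 1.20 at 8 weeks and −0.14 at 4 weeks (adjusted p of the difference = 0.0101). Oasl2, an interferon-induced gene related to oligoadenylate synthetase and named after its values were seen because its mean is below 50, held 28.7, 14.8, 27.3, 29.2 and 25.2 in sham and 104, 64.5, 94.9 and 87.8 in banding (1.79 against −0.23, adjusted p of the difference = 0.0101). In each of the 3 genes all banding libraries at 8 weeks lay above all sham libraries. The count was 3 with edgeR and 77 with DESeq2 (47 larger and 30 smaller at 8 weeks), and 639 IDs in each direction had an unadjusted p under 0.05. Without the libraries rich in atrial transcripts Rsad2 (adjusted p = 0.164) and Oasl2 (adjusted p = 0.0826) were not called, and without banding replicate 5 Fxyd6 was not (adjusted p = 0.0509).

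Single members rarely passed, but some lists shifted between both times by their medians. Over all IDs 50.7% had a larger log2 difference at 8 than at 4 weeks. In the interferon list this held for 29 of 30 genes, whose median was −0.16 at 4 weeks. In the matricellular list it held for 38 of 38 and in the collagen list for 16 of 16, with 4-week medians of 0.042 and 0.0052. It also held for 9 of 9 fibroblast markers (median −0.31 at 4 weeks and −0.092 at 8 weeks), whose part in the shift of both lists was not tested. The citrate cycle went the other way in 20 of 20 genes (median −0.17 at 4 weeks), mitochondrial translation and import in 42 of 44 (−0.050), the respiratory chain in 47 of 48 (−0.18) and the proteasome list in 32 of 34 (0.012). Of the adult sarcomere genes 15 of 16 also went that way (median 0.19 at 4 weeks and −0.075 at 8 weeks). So did 7 of 8 ventricular myocyte markers (0.061 and −0.097), whose part in the other shifts was not tested. Other lists were near even. A larger log2 difference at 8 weeks was held by 9 of 17 stretch and fetal genes, 13 of 25 channel genes and 14 of 30 oxidative stress genes. Both times have their own sham and banding samples, age goes together with time, and members of a list share the same libraries, so these counts are descriptions without a test.

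**Figure D5:**
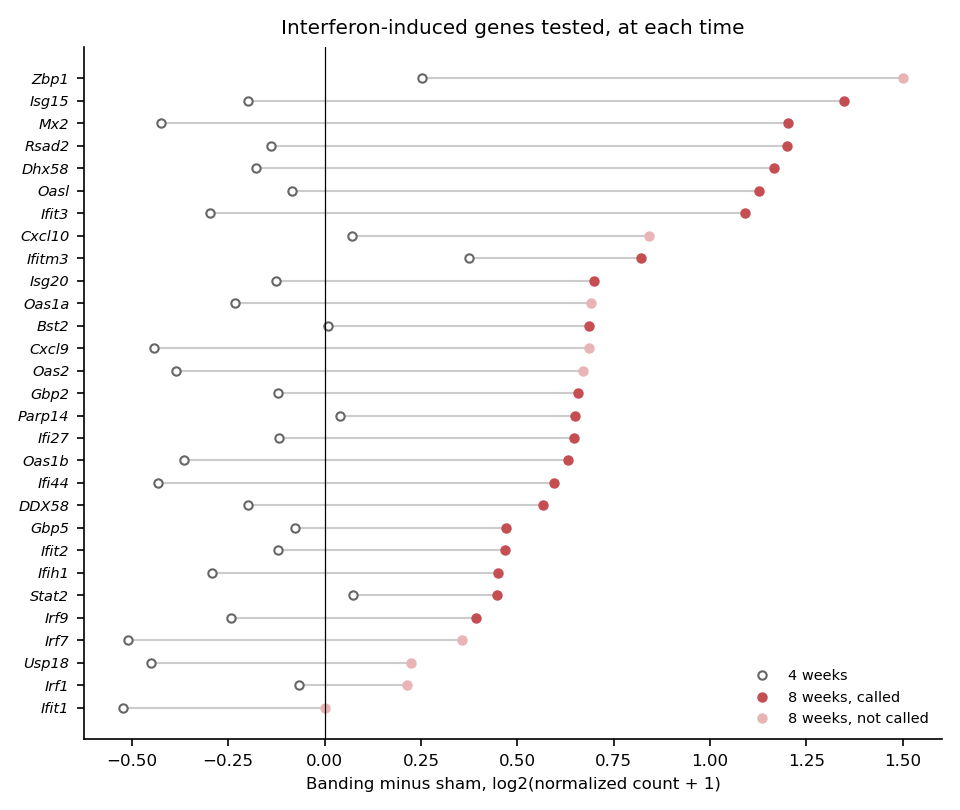
Each row is 1 of 29 of the 30 interferon-induced genes tested, with banding minus sham in log2(normalized count + 1) at 4 weeks (open circle) and at 8 weeks (filled; darker where called). At 8 weeks all 29 shown lie to the right of their 4-week value, with Isg15 at 1.35 against −0.20; the gene not shown is the 1 of 30 that does not.

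Immediate early and clock genes held few calls at 8 weeks. Of 23 immediate early genes, which answer acute stimuli, 1 was called, Maff (0.59 ± 0.15), while Fos, Egr1 and Jun had −0.42, 0.053 and 0.12. Of 15 clock genes 1 was called, Cry2 (0.26 ± 0.10), and that call was lost under 10 alternatives. Of 22 genes of serine synthesis and the ATF4 response 3 rose and 3 fell, with Stc2, a secreted glycoprotein, at −1.96 ± 0.25. Both counts were below the shares of all IDs (16.7% and 16.6%), and 1 of the falls was lost under 6 alternatives. Of 16 glucocorticoid targets 5 fell and 1 rose, and those that fell included Zbtb16 (−1.13 ± 0.23), Klf9 (−0.84 ± 0.15) and Sult1a1 (−1.81 ± 0.28).

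Markers of other cells moved beside these results as follows. Of 12 atrial markers Nppa rose and 3 fell (Kcna5, Stard10 and Tbx5, the last not called without the libraries rich in atrial transcripts), and their median difference was −1.05, or 0.017 without those libraries. Their summed level was 2545 to 59758 in sham and 26190.2 to 37319 in banding, most of it Nppa in banding. Without Nppa the sums were 2420 to 28782 in sham and 2377 to 6525 in banding. Fibroblast markers were called in 2 of 9 cases, below the 33.4% of all IDs, with Pdgfra lower (−0.57 ± 0.14) and Pi16 higher (1.54 ± 0.25). Without the libraries rich in atrial transcripts 3 were higher and 1 lower, and the median moved from −0.092 to 0.12. Their summed level was 30122 to 35658 in sham and 28766 to 33598 in banding. Of 17 endothelial markers 7 rose and 2 fell, against 16.7% and 16.6% of all IDs. Without the libraries rich in atrial transcripts 3 rose, and the median moved from 0.19 to 0.21. The sums of all 17 were 20164 to 23193 in sham and 20311 to 25076 in banding. Red cell transcripts summed to 1831 to 4027 in sham and to 3008 to 15012 in banding, lowest in banding replicate 4, and 3 of 5 were called higher (Hbb, Hbb-b1 and Alas2). All 5 were called with DESeq2 and without banding replicate 4, and the 3 calls were lost without the libraries rich in atrial transcripts (adjusted p = 0.0561 to 0.104). Hemoglobin genes share near-identical copies and are uncertain. Of 7 Schwann and neuronal markers tested 3 fell and 2 rose, beside 16.6% and 16.7% of all IDs. Without the libraries rich in atrial transcripts 1 fell and 1 rose. Sox10 and Cdh19 of Schwann cells had −1.28 ± 0.25 and −1.32 ± 0.36, Prph and Dbh of neurons 0.97 ± 0.23 and 0.83 ± 0.29, the latter a call lost under 10 alternatives, and the call of Cdh19 was lost without the libraries rich in atrial transcripts (−0.62, adjusted p = 0.295). Markers of mast cells (8 tested, −0.65 to 0.84), adipocytes (5, −1.82 to −0.18) and neutrophils (3, 0.17 to 1.02) were not called. Of 14 T and NK cell markers 7 were tested, with a median of −0.18. Cd4 was higher (0.86 ± 0.17) and Klrd1 lower (−1.71 ± 0.42), near the shares of all IDs (16.7% and 16.6%). Of the 7 only Cd4 had a mean of 50 or more. Of 6 mesothelial markers tested only Wt1 was called (0.91 ± 0.18), near the share of all IDs called higher (16.7%). Of 10 markers of skeletal muscle only Ckm, which heart muscle also expresses, reached the minimum. In all, the lists held 1353 entries, of which 1147 were tested, 150 were below the minimum and 56 had no ID in the table.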

How the data were processed

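Total RNA of the right ventricle was sequenced 4 or 8 weeks after the operations, from snap-frozen tissue, Trizol extraction and TruSeq Ribo-Zero Gold libraries, per the labels' protocols. STAR, DESeq2 and build rn6 are named in the submitters' processing notes, and neither counting program nor strand setting is given in the sources used here. Normalized counts were deposited by the authors, a signal of reads divided by 1 factor per library, for 18282 RefSeq IDs in 19 libraries. All positive values were whole multiples of 1 step within 0.001, so reads could be recovered (100% whole). Of the tables of comparisons, the one used holds the log2 fold change and the adjusted p-value per ID that the authors deposited.

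Symbols came from a RefSeq table of GRCr8 for 17359 IDs and from the deposited tables for 922. The main test was limma 3.58.1 (trend, R 4.3.3) on log2(value + 1), 2-sided, over the 10926 IDs at 10 or more in at least 4 libraries, with 4 groups in 1 fit. edgeR 4.0.16 and DESeq2 1.42.0 on recovered reads were alternatives: edgeR called 3569 IDs and DESeq2 3591. The fold changes of low genes are understated by the added 1. Replicates are separate labelled samples, and nothing states that they are separate animals. The limma p-values thus measure the spread between samples, pooled over all 4 groups. With only the 8-week groups in the fit 3321 IDs were called. Genes were named by a rule: the 12 largest called rises and 12 largest falls without overlap and with means of 50 or more, the 6 smallest p in each direction, the 6 members of smallest p in each list, every called member of lists with 8 or fewer, up to 8 called differences of effects each way, and 14 heart genes. It gave 329 genes; 78 more, mostly isoforms, partners and members that did not pass, were chosen after their values were seen. Some named items are not reported here. Members, lists and tests were chosen with earlier results of these data known, so list counts are descriptions. The procedure was tested on simulated data. Promoter and microRNA sequences are RefSeq (GRCr8), and 8882 tested genes had a promoter.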

Additional observations from a re-analysis of the deposited data

Results flagged for a closer look

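Of 60 groups of values examined, 7 held a library that stood apart from the others of its group, where chance gives about 1 in 20. The groups share libraries, and the atrial sum contains Nppa and Myl7, so the count cannot be weighed against that rate. In sham, replicate 1 stood apart with the highest Nppa (30976.3), Myl7 (17580.0) and summed atrial markers (59758). Among the banding libraries, replicate 3 stood apart in Myl7 (2315). The summed lymphatic markers were highest in sham replicate 5 (1331), the summed neutrophil markers in sham replicate 4 (221), and the summed Schwann and neuronal markers in banding replicate 5 (290.2). The effect of banding was larger at 8 than at 4 weeks, by a test of the difference in limma, for Rsad2 (by 1.34 on the log2 scale) and Fxyd6 (by 0.87).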

How the results depend on the processing

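The 3644 calls at 8 weeks became 2553 (without the libraries rich in atrial transcripts, the lowest) to 3832 (with Myl7 as a covariate, the highest) under the alternatives tried, each within 1.5 times, and leaving out 1 library gave 3076 to 3568. Replicate numbers did not pair the libraries (correlations of same-numbered deviations −0.15 to 0.083), and the fit with the replicate block called 3402 IDs, 3334 of them in the same direction. The count of differing effects was 3 in the reported fit, 77 with DESeq2, 5 with TMM rescaling and 202 with Myl7 as a covariate, and 2 to 23 on leaving out 1 library (23 without sham 1, 16 without banding 1, 15 without banding 4, 9 without banding 3, 7 without sham 5, 5 without sham 4); the cause was not tested. The Myh7 share differed by 45.6 to 48.6 percentage points on leaving out 1 library, and by 45.6 without the libraries rich in atrial transcripts, where 2 against 3 libraries cannot give an exact p below 0.2 (p = 0.2). Of 407 named genes 324 kept the same call under every alternative that gave a value, and no call turned direction. Recovered depth was 2702672 to 8541163 reads per 8-week library, lowest in banding replicate 1 and sham replicate 1.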

Other observations

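Outside the lists, further genes with no overlap between the groups were picked after their values were seen. Tgfa, a ligand of the epidermal growth factor family, held 22.9, 8.31, 3.15, 1.58 and 14.2 in sham and 104, 83.1, 118 and 110.0 in banding (limma log2 difference 3.67 ± 0.56, adjusted p = 2.38e-05), and Hbegf, another such ligand, rose by 1.42 ± 0.22. Erbb4 and Erbb3, receptors of the same family, had −1.42 ± 0.14 and −1.25 ± 0.23. Erbb4 held 369, 272, 322, 277 and 311 in sham and 80.1, 136, 124 and 127 in banding, so its highest banding library stayed far below its lowest sham library.

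Penk, the precursor of the enkephalin peptides, held 103, 113, 132, 123 and 163 in sham and 1262, 1887, 1100 and 1089 in banding (3.37 ± 0.28, adjusted p = 7.77e-09). Sele and Selp, the adhesion molecules E-selectin and P-selectin of activated endothelium, rose by 2.89 ± 0.29 and 2.20 ± 0.45, lowest of the banding group in replicate 4. Npr3, the clearance receptor of natriuretic peptides, rose by 1.37 ± 0.23, Trpc6, a cation channel, by 1.59 ± 0.23, and Dio2, which activates thyroid hormone, by 1.84 ± 0.40. Kcnk2, the stretch-activated potassium channel TREK-1, held 118.5, 71.1, 77.7, 73.5 and 62.2 in sham and 22.0, 11.5, 8.02 and 4.62 in banding (−2.86 ± 0.30). Gpt, alanine aminotransferase, and Ech1, an isomerase of fatty acid oxidation, had −1.83 ± 0.14 and −1.50 ± 0.13.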
